A study of Mus musculus with 13 samples.

Results

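The cytosolic heat shock genes described here are Hsf1, the transcription factor of the heat shock response, and 9 genes of chaperones or chaperone partners of the cytosol, namely Hspa1a, Hspa1b, Hspa8, Hsph1, Hsp90aa1, Hsp90ab1, Hspb1, Dnajb1 and Dnaja1. They were chosen by symbol from the 53392 genes of the count table, and all 10 were found there, 9 of them with enough counts to be tested. Liver RNA of 13 female mice, 8 to 14 weeks old, was measured by RNaseq. All mice received a Lieber-DeCarli liquid diet with 28% of calories from ethanol (Etoh) for 4 weeks, and none was on a diet without ethanol. The transgene of acid ceramidase (ASAH1), an enzyme that hydrolyzes ceramide, stands under a tetracycline response element. It is driven by the transactivator rtTA, which is expressed from Rosa26 after Albumin-Cre, active in hepatocytes, removes a stop cassette, and it needs doxycycline (Dox, 200 mg/l of diet). Every mouse carried the rtTA and Albumin-Cre transgenes. There were 4 ASAH- Etoh-Dox mice, littermates without the ASAH1 transgene that received Dox and are called the genetic controls here. The 5 ASAH+ Etoh-Dox mice carried the transgene and received Dox, and are called the induced mice. The 4 ASAH+ Etoh mice carried it and received no Dox, and are called the diet controls. Titles and descriptions of the ASAH+ samples contradict each other on Dox, and the groups follow the descriptions, with which the induction labels go. Asah1 was at 40.0 to 55.0 CPM (counts of a gene relative to the scaled total of its mouse) in the 8 mice without induction and at 9668 to 15935 CPM in the 5 induced mice.

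Heat shock proteins are chaperones that bind unfolded or unstable proteins and help them to fold, to assemble or to be degraded. When unfolded protein accumulates, after heat, oxidants or ethanol for example, HSF1 is released from chaperones, forms trimers and binds heat shock elements, which are inverted repeats of the bases GAA, in the promoters of chaperone genes. The activity of HSF1 is set mainly after translation, so that the mRNA of Hsf1 itself need not follow that of its targets. In liver the same genes also follow body temperature over the day.

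The promoters of these genes are shown first. RefSeq promoters on GRCm38.p6, from 250 bases before to 50 bases after a start site, were at hand for 6 of the 10 genes. They were searched for the paired units GAANNTTC or TTCNNGAA, both of which read the same on both strands. At least 1 paired unit was present in 5 of the 6 genes, against 17.0% of the 27025 genes with a promoter and 15.1% of the 32851 promoters. Hspa1a and Hspa1b, neighbouring copies, carried the same match, so they do not count as independent genes. Dnaja1 had its unit only in the window of its most upstream start. Dnajb1 had none in either of its windows. In the following stretches, each of 30 bases and written 5′ to 3′ on the strand of the gene, the capitals mark the paired units.
Hspa1b (chr17:34959324-34959353, minus strand): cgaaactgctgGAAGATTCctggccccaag
Hspa1a (chr17:34972242-34972271, minus strand): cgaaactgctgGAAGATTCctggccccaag
Hsph1 (chr5:149636351-149636380, minus strand): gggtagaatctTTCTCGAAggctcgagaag
Hspb1 (chr5:135887801-135887830, plus strand): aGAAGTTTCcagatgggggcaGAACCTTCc
Dnaja1 (chr4:40722333-40722362, plus strand): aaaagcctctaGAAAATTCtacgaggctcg
The unit of each begins 104 bases before the start of Hspa1b and Hspa1a, 33 bases before the upstream one of the starts of Hsph1 and 124 bases before that of Dnaja1. The Hspb1 promoter holds a pair of units, which begin 117 and 97 bases before the start. A longer motif has 3 units, the paired units followed after 2 bases by 1 more, and so contains them. It was found in 0.603% of all promoters, and among the 6 genes only in Hsph1, from base 37 after the start. In the next stretch the capitals mark it.
Hsph1, 3 units (chr5:149636287-149636316, minus strand): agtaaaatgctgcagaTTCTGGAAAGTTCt
These matches describe the letters of the windows, and binding of HSF1 was not measured.

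The identical stretches of Hspa1a and Hspa1b come from neighbouring copies of the gene of inducible HSP70. On GRCm38 both are single-exon genes on the minus strand of chromosome 17, Hspa1b from 34956436 to 34959238 and Hspa1a from 34969190 to 34972156, with 9951 bases between them. Their promoters differed at 4 of 300 bases. Of all stretches of 31 bases in the transcripts of Hspa1b, 67.6% were also in Hspa1a, so that the division of reads between these copies is uncertain. Hspa1a had only 1 to 16 counts per mouse, too few to be tested, and Hspa1b had 25 to 272. The sum of both, used as an alternative, therefore consists mainly of Hspa1b.

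Of the other members, Hsf1 lies on chromosome 15 (76477422 to 76501913), Hspa8 on chromosome 9 (40800984 to 40810087), Hsp90aa1 on chromosome 12 (110690605 to 110702728) and Hsp90ab1 on chromosome 17 (45567775 to 45573271). Hsph1 (149614287 to 149636376) and Hspb1 (135887919 to 135889563) are both on chromosome 5, Dnajb1 is on chromosome 8 (83608193 to 83612653) and Dnaja1 on chromosome 4 (40722150 to 40737149). Levels between genes were compared per kilobase of the longest principal transcript of each gene. Hspa8, the constitutive HSP70, ranged from 329 to 899 CPM per kilobase over the 13 mice, and its range overlapped that of Hsp90ab1, the constitutive HSP90, with 319 to 503. Hsp90aa1, the inducible HSP90, had 35.96 to 119.9 CPM per kilobase and overlapped Dnaja1, an HSP40 partner of HSP70, with 32.8 to 59.5. Hsph1, an HSP110 that exchanges the nucleotide of HSP70, followed with 8.78 to 33.6, and Hspb1, a small heat shock protein, with 3.83 to 19.7. Dnajb1, the inducible HSP40, had 4.60 to 11.6, Hsf1 had 3.96 to 5.95 and Hspa1b had 0.414 to 5.61 CPM per kilobase. Hspa1a was lowest in every mouse, with 0.0135 to 0.292. Neighbours in this order overlapped throughout, except at the gap between Hsp90ab1 and Hsp90aa1 and that between Hspa1b and Hspa1a. The constitutive forms thus stood above the inducible forms of the same family in every mouse.

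**Figure D1:**
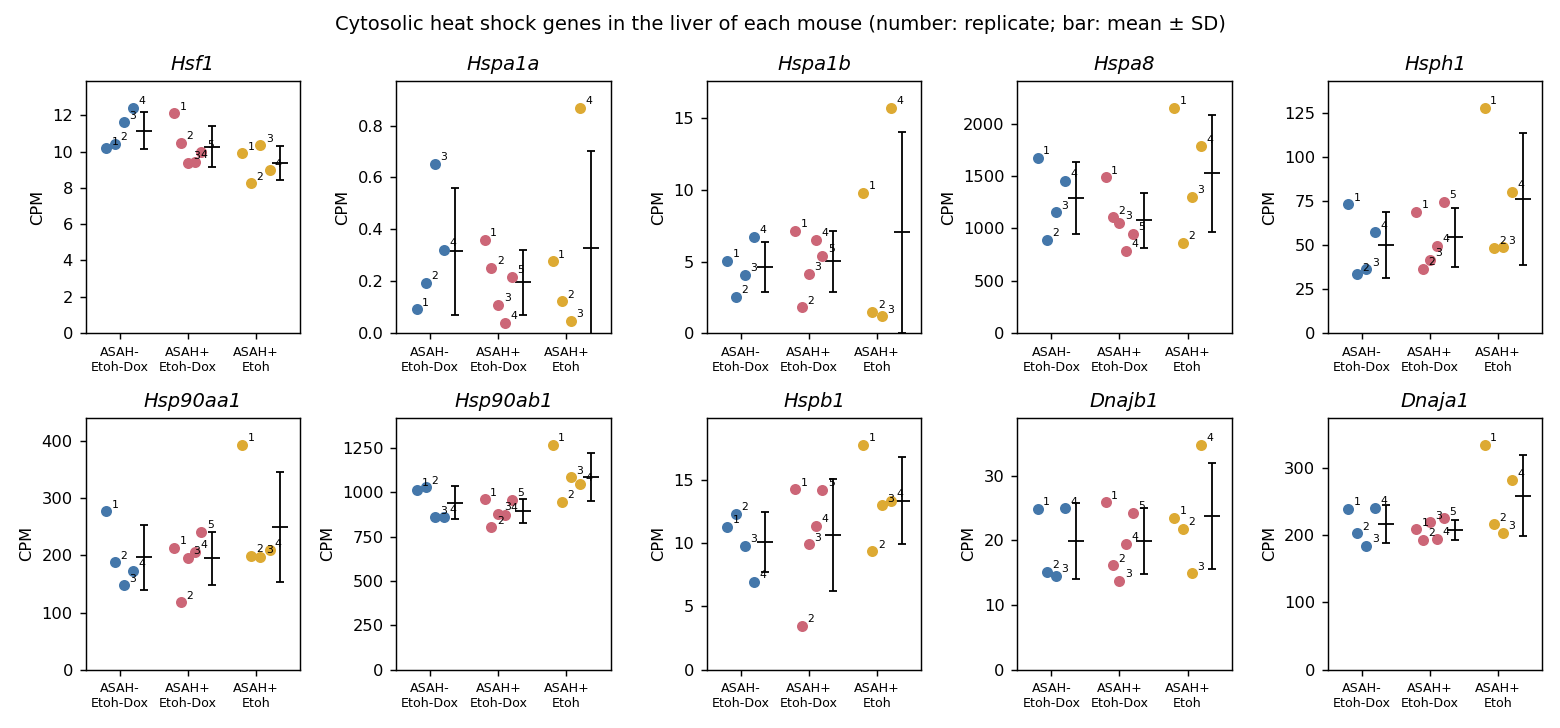
CPM (linear axis from 0) of each of the 10 heat shock genes in each of 13 mice, by group (ASAH- Etoh-Dox, the genetic controls; ASAH+ Etoh-Dox, the induced mice; ASAH+ Etoh, the diet controls), with the replicate number beside each point; black bars give the mean and SD of 4, 5 and 4 mice, and are cut at 0. The groups overlap for every gene, and replicate 1 or 4 of the diet controls is the highest point for all genes other than Hsf1.

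Of these genes, Hspa1b had the widest spread within the groups. Hspa1b had 5.07, 2.54, 4.08 and 6.72 CPM in the 4 genetic controls. In the 5 induced mice it had 7.16, 1.80, 4.16, 6.54 and 5.38 CPM. In the 4 diet controls it had 9.82, 1.46, 1.16 and 15.7 CPM, so that this group held both the lowest mouse and the highest mouse, 13.6-fold apart. The SD of log2 CPM within groups was 1.18 for Hspa1b, above that of 98.4% of the genes tested.

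Hsph1 had 73.1, 33.4, 36.2 and 57.1 CPM in genetic controls. In induced mice it had 69.0, 36.5, 41.7, 49.7 and 74.7 CPM, and in diet controls 128, 48.3, 48.6 and 80.1 CPM. Replicate 1 of the diet controls stood above the other 12 mice, which overlapped across the groups. Hsp90aa1 had 277, 188, 148 and 173 CPM in genetic controls, and 214, 118, 195, 206 and 241 CPM in induced mice. In diet controls it had 393 CPM in replicate 1 and 199, 198 and 208 CPM in the others. For Hsp90aa1 the other 3 diet controls lay within the range of both other groups.

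Dnajb1 had 24.9, 15.2, 14.5 and 24.99 CPM in genetic controls. It had 25.9, 16.1, 13.8, 19.5 and 24.2 CPM in induced mice, and 23.5, 21.8, 14.9 and 34.8 CPM in diet controls. Replicate 4 of the diet controls was the highest for this gene, as for Hspa1b and Hspa1a. Dnaja1 had 239, 203, 185 and 240 CPM in genetic controls, 209, 193, 219, 194 and 225 CPM in induced mice, and 335, 216, 204 and 281 CPM in diet controls. Hspb1 had 11.3, 12.3, 9.79 and 6.94 CPM in genetic controls, 14.3, 3.46, 9.91, 11.4 and 14.2 CPM in induced mice, and 17.8, 9.36, 12.99 and 13.4 CPM in diet controls. The value of 3.46 CPM, from replicate 2, was the lowest of all mice, and the remaining values overlapped.

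Hsp90ab1 and Hsf1 varied least, with an SD of log2 CPM within groups of 0.14 each. Hsp90ab1 had 1014, 1027, 858 and 863 CPM in genetic controls, 960, 804, 880, 872 and 959 CPM in induced mice, and 1268, 947, 1085 and 1045 CPM in diet controls. The diet controls stood higher, yet their lowest mouse was below the highest of each other group. Hsf1 had 10.2, 10.4, 11.6 and 12.4 CPM in genetic controls. It had 12.1, 10.5, 9.40, 9.43 and 9.98 CPM in induced mice, and 9.91, 8.26, 10.3 and 8.96 CPM in diet controls. For Hsf1 the diet controls had the lowest mean of the 3 groups. Across the 9 genes tested the median SD within groups was 0.44, against 0.24 for all genes tested.

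Hspa8 shares most of the sequence of a pseudogene. It had 1675, 892, 1155 and 1454 CPM in genetic controls, 1491, 1105, 1057, 788 and 952 CPM in induced mice, and 2152, 864, 1303 and 1787 CPM in diet controls. The processed pseudogene Gm15459 (chromosome 5, 5781615 to 5783555, minus strand) shares 91.9% of its stretches of 31 bases with Hspa8 transcripts. It had 6662 to 7495 counts in 4 mice and 30 to 101 counts in the other 9. In those 4 mice it took 23.2 to 25.5% of the counts of gene and pseudogene together, and in the other 9 at most 0.344%. The 4 mice were replicate 2 of the genetic controls, replicates 4 and 5 of the induced mice and replicate 2 of the diet controls, so that every group held at least 1. In each of the 3 groups the mouse with the lowest Hspa8 was one of them. Summed with the pseudogene, Hspa8 came to 1363 ± 252 CPM (SD, n = 4) in genetic controls, 1198 ± 187 (n = 5) in induced mice and 1602 ± 456 (n = 4) in diet controls. The SD of log2 CPM within groups was 0.44 for the gene alone and 0.30 for the sum. What sets the share of the pseudogene was not tested. The sums were made after these counts had been seen.

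**Figure D2:**
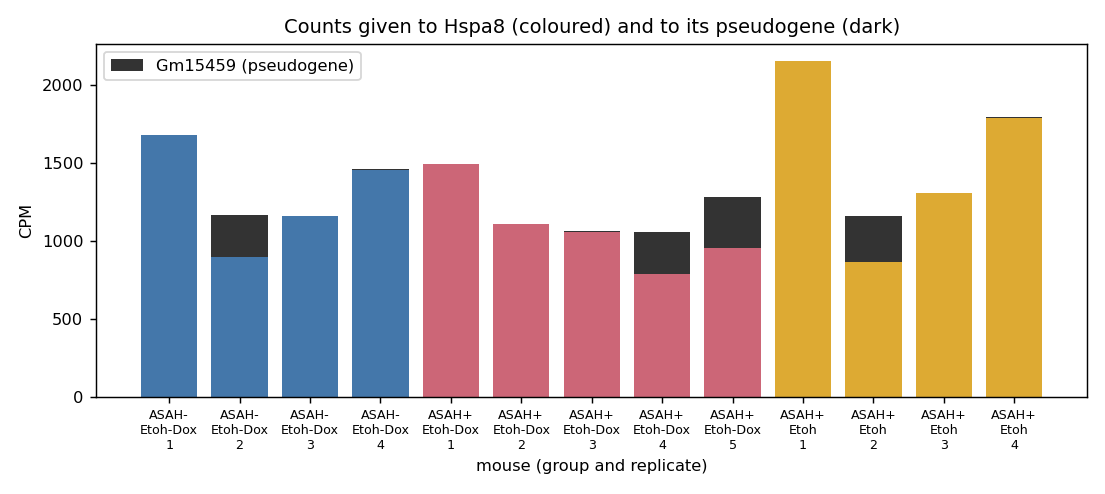
CPM of Hspa8 (coloured by group) and of its processed pseudogene Gm15459 (dark, stacked on top) in each of 13 mice, on a linear axis from 0. The dark part is visible in 4 mice, where it makes up 23.2 to 25.5% of the counts of both, and nearly absent in the other 9.

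Dnaja1 also has a processed pseudogene with counts, Gm15542 on chromosome 7 (140890887 to 140892080). It took 5.15 to 9.62% of the counts of both in every mouse. Hsp25-ps1, which shares 52.3% of the stretches of Hspb1, had 0 counts, and of the 5 pseudogenes that share most with Hsp90aa1, and of the 5 that share most with Hsp90ab1, none had over 12 counts in a mouse. Hsph1 shared no stretch with any other gene. The end of Dnaja1 overlaps Smu1, which lies on the opposite strand, by 608 bases.

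The first comparison asks what induction of ASAH1 changed when both genotypes received Dox. Among the 9 heat shock genes tested, none was differentially expressed between induced mice and genetic controls by edgeR's quasi-likelihood test at the threshold of 0.1 (adjusted p = 1.00 for each). Of all genes tested, 2 (0.0140%) passed, and 0 of the 9 genes had an unadjusted p-value under 0.05, against 2.86% of all genes. DESeq2, with 0.0759% of its genes called, and limma-voom also called 0 members. The log2 fold changes ran from -0.26 for Hspa8 to 0.12 for Hspa1b. They were below 0 for 5 of 9 genes, against 50.7% of all genes, and their median was -0.010, against -0.0023 for all genes. With 1 mouse left out this median had no fixed sign, at 0.13 without replicate 1 and -0.11 without replicate 3 of the genetic controls. No member had groups that did not overlap, which held for 0.887% of all genes.

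How far these data limit a change differed among the members. For Hsp90ab1 the log2 fold change was -0.071 with a 95% interval from -0.28 to 0.14, and for Hsf1 it was -0.12 with an interval from -0.35 to 0.11. For Dnaja1 the interval ran from -0.35 to 0.23. Hsph1, at 0.12, had an interval from -0.62 to 0.87, and Hspa1b, also at 0.12, one from -1.35 to 1.60. The data thus bound a change closely for Hsp90ab1 and Hsf1, and only loosely for Hspa1b.

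**Figure D3:**
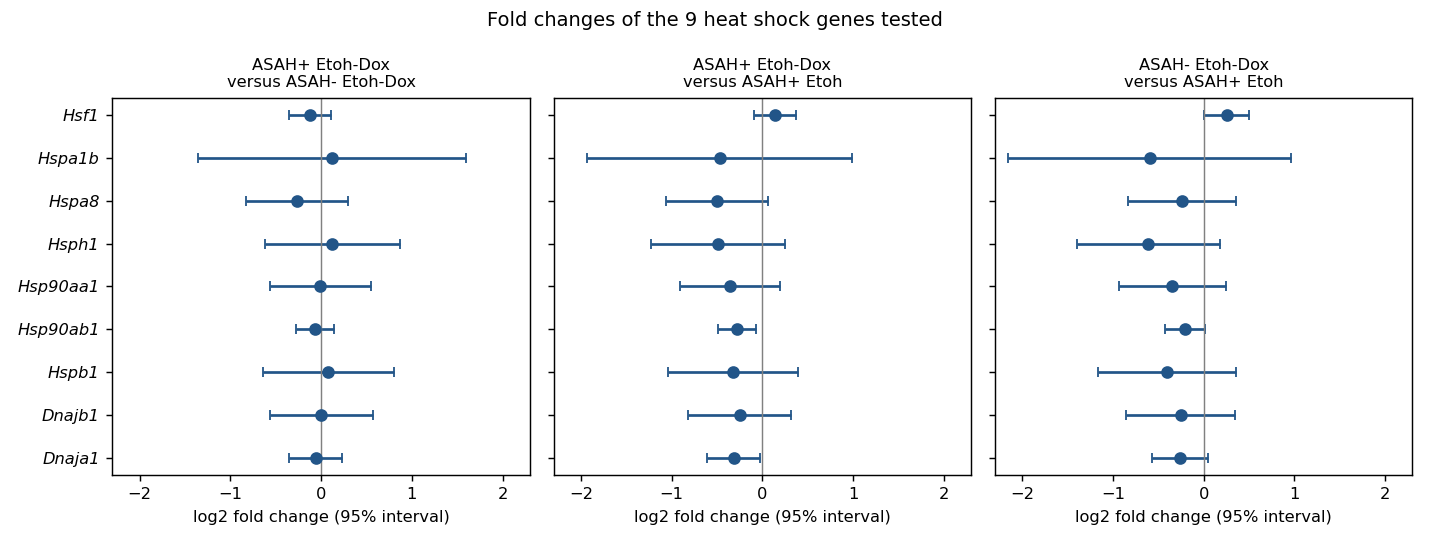
Log2 fold change from edgeR (points) with its 95% interval (bars) for the 9 heat shock genes tested, in each of 3 comparisons; the first group named is the numerator. Intervals are narrow for Hsf1 and Hsp90ab1 and widest for Hspa1b; in the comparison of induced mice with diet controls, 8 of 9 points lie below 0.

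The second comparison, of induced mice with diet controls, has the transgene in both groups and differs in Dox and so in induction. It shares the induced mice with the first. Again 0 of 9 members were called by edgeR, and 0.0140% of all genes were. The fold changes were below 0 for 8 of 9 genes, against 47.0% of all genes, with a median of -0.33 against 0.013 for all genes. Hsp90ab1 and Dnaja1 were the 2 members with an unadjusted p-value under 0.05, a threshold passed by 7.29% of all genes. Hsp90ab1 had a log2 fold change of -0.28 (SE 0.098), with an adjusted p of 0.551 from edgeR and an unadjusted exact permutation p = 0.0317. In 2 of 20 pairs of mice the induced mouse was the higher. DESeq2 on all 13 mice gave an adjusted p for only 4 members (Hspa8, Hsp90aa1, Hsp90ab1 and Dnaja1) and called 1 of them, Hsp90ab1 (adjusted p = 0.0998), against 4.94% of the 1982 genes for which it gave an adjusted p. On the 9 mice of these groups alone DESeq2 called no member, and limma-voom called none either. Dnaja1 had a log2 fold change of -0.32 (SE 0.14, adjusted p = 0.644 from edgeR, exact permutation p = 0.103). Its level was 335 CPM in replicate 1 of the diet controls and 216, 204 and 281 CPM in the others. The fold changes of Dnaja1 and of Hsp90ab1 rest in part on that replicate, without which they were -0.17 and -0.20.

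None of the other members, as counted per gene, had an unadjusted p-value under 0.05. Hspa8 had a log2 fold change of -0.50 (SE 0.26, adjusted p = 0.704 from edgeR), and -0.42 (SE 0.18, adjusted p = 0.644 from edgeR) when its pseudogene was added. The unadjusted p-value from edgeR was 0.0767 for the gene alone and 0.0361 for the sum, whose exact permutation p was 0.119. Hsph1 had -0.49 (SE 0.34), Hsp90aa1 -0.36 (SE 0.26), Hspb1 -0.33 (SE 0.33) and Dnajb1 -0.25 (SE 0.26), with adjusted p-values from edgeR of 0.784 to 0.864. Hspa1b had a fitted log2 fold change of -0.47 (SE 0.67), whereas the difference of its mean log2 CPM was 0.15, so that the sign depends on the scale. Hsf1 was the single member above 0, at 0.14 (SE 0.11). No member had groups that did not overlap, against 2.58% of all genes. Without replicate 1 of the diet controls the median of the members was -0.17.

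The design has a genetic control and a diet control, neither of which induces the transgene, and the last comparison asks how they differ. It shares a group with each of the others, so its values are not independent of theirs. None of the 9 members was called by edgeR, with 0.0140% of all genes, or by limma-voom. DESeq2 gave an adjusted p for the members other than Hspa1b and called none of those 8, against 1.73% of the 8625 genes with an adjusted p. The fold changes were below 0 for 8 of 9 genes, against 46.8% of all genes, with a median of -0.26 against 0.016 for all genes, and of -0.13 without replicate 1 of the diet controls. Hsf1 was the exception and the only member with an unadjusted p-value under 0.05, which 9.19% of all genes had. Its log2 fold change was 0.25 (SE 0.11, adjusted p = 0.529 from edgeR, exact permutation p = 0.0571), and in 15 of 16 pairs the genetic control was the higher. Hsph1 had a log2 fold change of -0.61 (SE 0.36, adjusted p = 0.649 from edgeR) and Hsp90ab1 one of -0.21 (SE 0.10, adjusted p = 0.567 from edgeR). Hspa1b was at -0.59 (SE 0.71) by the fit and at 0.088 by mean log2 CPM. No member was free of overlap, against 5.50% of all genes. The smallest p that the exact test can give is 0.00794 for 5 mice against 4 and 0.0286 for 4 against 4.

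From mouse to mouse, the chaperone genes varied together. Among the 8 genes tested other than Hsf1, all 28 pairs had a positive Pearson r of log2 CPM over the 13 mice, from 0.22 to 0.86 with a median of 0.63. Over all pairs of genes tested the median was -0.00051, with quartiles of -0.24 and 0.24. With group means removed, the median of the 28 pairs was 0.62. Replicate 1 of the diet controls was the highest mouse for 6 of the 9 genes and had a mean rank of 11.4 of 13, and replicate 4 of that group had a mean rank of 10.4. Replicate 2 of induced mice had the lowest mean rank, 3.56. Without replicate 1 of the diet controls, 27 of the 28 pairs were positive and the median was 0.50. Without replicates 1 and 4 of that group, 26 were positive with a median of 0.39.

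**Figure D4:**
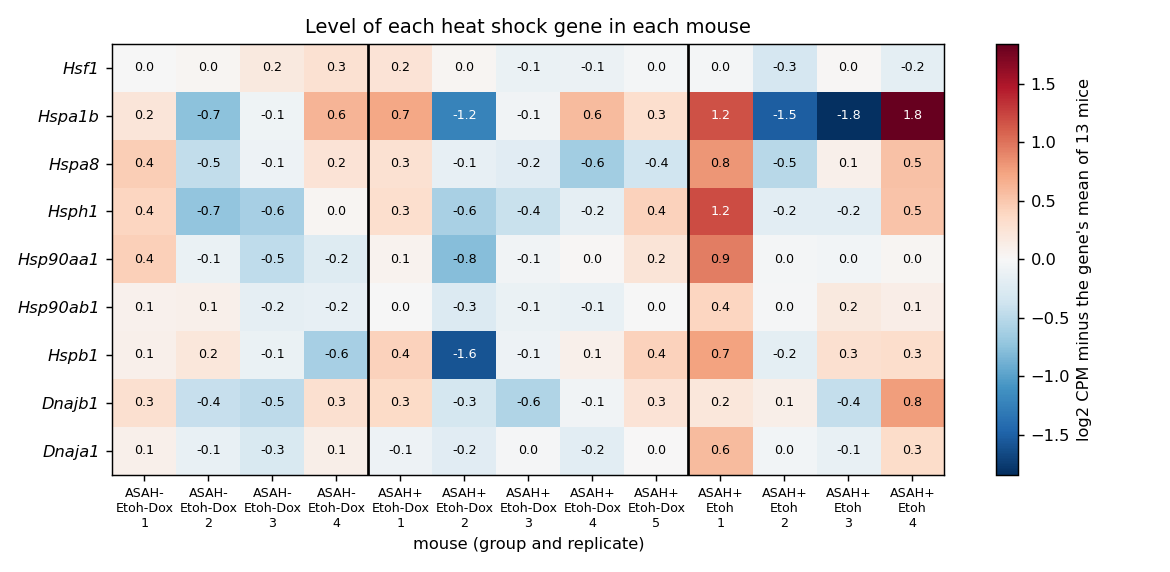
Log2 CPM of each of the 9 heat shock genes tested (rows) in each of 13 mice (columns, black lines between groups), minus the mean of the gene over all mice; red is above and blue below the mean. The columns of replicates 1 and 4 of the diet controls are mostly red and that of replicate 2 of the induced mice mostly blue, while the row of Hsf1 stays pale.

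Hsph1 was used as the reference for relations with the other members, since it has no near copy in the annotation. Together with relations to Cirbp and to the clock genes, 29 relations over 13 mice were tested by permutation and adjusted by the Benjamini-Hochberg method. Dnaja1 had r = 0.86 (rho = 0.81, adjusted permutation p = 0.00464) and Hsp90aa1 had r = 0.84 (rho = 0.84, adjusted permutation p = 0.00464). Dnajb1 followed with r = 0.77 (rho = 0.77, adjusted permutation p = 0.0167). Leaving out the 2 mice farthest from the median of Hsph1, which were replicates 1 and 4 of the diet controls, left r = 0.68, 0.75 and 0.86 for these genes. Hspa8 had r = 0.72 (rho = 0.62, adjusted permutation p = 0.0317) and Hsp90ab1 r = 0.68 (rho = 0.52, adjusted permutation p = 0.0422). Without the same 2 mice r was 0.45 and 0.31, so that the relation of Hsp90ab1, and that of Hspa8 counted without its pseudogene, rest on those mice. Summed with its pseudogene, Hspa8 had r = 0.88 with Hsph1 over all mice. Without replicate 1 of the diet controls alone, r was 0.57 for the gene and 0.80 for the sum, and the sum was not examined without both mice. Hspa1b had r = 0.66 (rho = 0.76, adjusted permutation p = 0.0422, 0.51 without the 2 mice). Hspb1, with r = 0.58 (rho = 0.63), did not pass (adjusted permutation p = 0.110). Hsf1 had r = -0.10 (rho = -0.25, adjusted permutation p = 0.856), and Hspa1a had r = 0.18 at its few counts. Of all 29 relations 9 passed the threshold of 0.1. When replicate 1 of the diet controls was left out, 3 did, those of Hsph1 with Dnaja1, Hsp90aa1 and Dnajb1. Without replicate 2 of the induced mice, those with Hspa1b and Hsp90ab1 were lost (adjusted permutation p = 0.101 each).

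Among the 14316 other genes tested, the 5 with the highest r with Hsph1 were Chordc1 (0.95), Mylpf (0.91), Gm15542 (0.88), Dnaja1 (0.86) and Pole4 (0.85). These values are a description over 13 mice that share their library preparation, and none was tested here other than Dnaja1, whose relation is among the 29 above. Chordc1, a partner of HSP90, had 48.9, 32.0, 34.5 and 46.2 CPM in genetic controls. It had 44.2, 35.1, 39.3, 36.7 and 43.7 CPM in induced mice, and 72.2, 38.3, 39.2 and 52.4 CPM in diet controls. The same mice were high as for Hsph1, and r was 0.93 without replicate 1 of the diet controls. Gm15542 is the pseudogene of Dnaja1 described above. Mylpf, a myosin light chain of fast skeletal muscle, had 9 to 21 counts per mouse, and the summed counts of the muscle markers Acta1, Ckm and Myh4 were 0 to 2 in each mouse. For Hspa1b the 5 genes were Rbm14 (0.89), Mllt11 (0.87), Ywhag (0.86), Uspl1 (0.84) and Plppr2 (0.83), none of which is a chaperone gene.

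**Figure D5:**
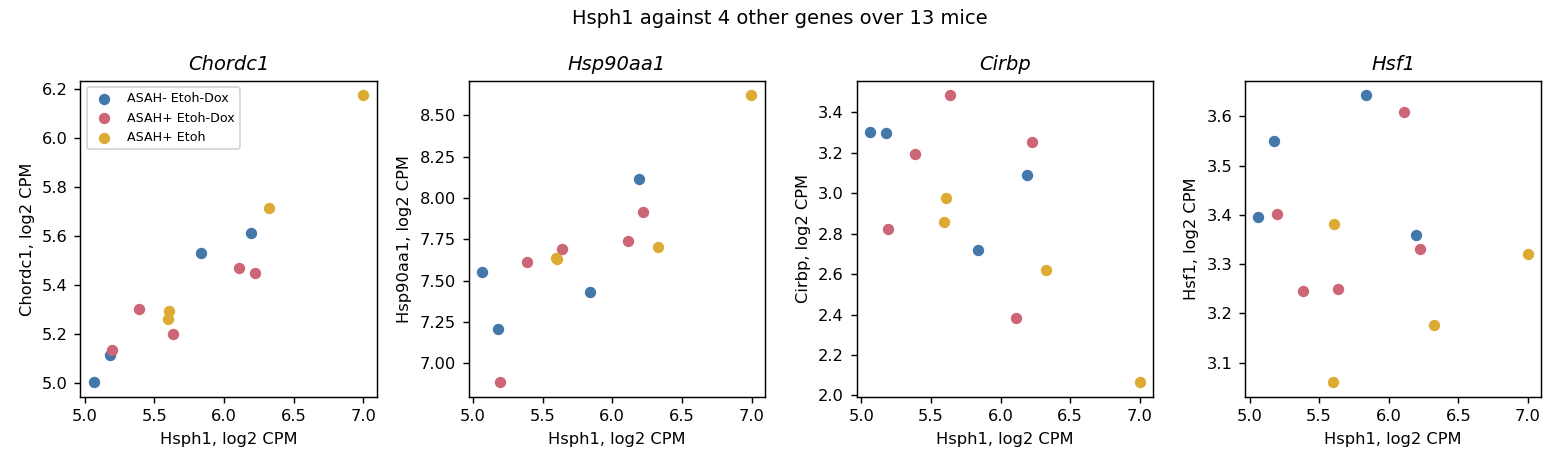
Log2 CPM of Hsph1 (x axis) against that of Chordc1, Hsp90aa1, Cirbp and Hsf1 (y axes) in 13 mice, coloured by group. Chordc1 and Hsp90aa1 rise with Hsph1 (r = 0.95 and 0.84), Cirbp falls (r = -0.67) and Hsf1 shows no trend (r = -0.10); the mouse at the far right is replicate 1 of the diet controls.

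Cirbp, a cold-inducible RNA-binding protein whose mRNA rises when body temperature falls, varied in the opposite direction. It had r = -0.77 with Hspa8 (rho = -0.74, adjusted permutation p = 0.0167), r = -0.69 with Dnaja1 (rho = -0.58, adjusted permutation p = 0.0422) and r = -0.67 with Hsph1 (rho = -0.55, adjusted permutation p = 0.0422). Without the 2 mice farthest from the median of Cirbp, replicate 1 of the diet controls and replicate 1 of the induced mice, r was -0.63, -0.61 and -0.33, so that the relation with Hsph1 rests on them. Without replicate 1 of the diet controls alone, none of the 3 passed (adjusted permutation p = 0.167, 0.362 and 0.362). The other 7 members did not pass, with adjusted permutation p-values of 0.179 to 0.856. Cirbp was lowest in replicate 1 of the diet controls (4.10 CPM) and highest in replicate 4 of induced mice (11.1 CPM). The log2 ratio of Dbp to Arntl, which follows the phase of the liver clock, had no relation past the threshold with any of the 10 members (r from -0.36 to 0.33, adjusted permutation p of 0.427 or more). The hour at which each liver was taken is not given in the sources used here.

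Other genes of the chaperone network were described by lists. None of the genes on any list was called by edgeR in any comparison, and the lists were not tested with DESeq2. A list of 30 cochaperones and further chaperones was mostly of the cytosol, with the mitochondrial Hspe1 and Hspd1 among them. Of these 30, 0, 2 and 2 had an unadjusted p-value under 0.05 and a lower level in the 3 comparisons in turn. A higher level at that p-value was found for 0, 0 and 1 of them. Over all genes 2.86%, 7.29% and 9.19% had such a p-value in either direction, so that these counts are near the background. Their median log2 fold changes were -0.026, -0.12 and -0.078. Hspe1, a mitochondrial cochaperonin on this list, had the smallest p of the first comparison (log2 fold change -0.17, SE 0.12). Hspa4, an HSP110 like Hsph1, had that of the second, at -0.22 (SE 0.075, adjusted p = 0.550 from edgeR), and in 1 of 20 pairs the induced mouse was the higher. Hspa4l, of the same family, had that of the third, at -0.44 (SE 0.14, adjusted p = 0.389 from edgeR). In 0 of 16 pairs was the genetic control the higher, and 5.50% of all genes had groups that did not overlap in that comparison. Of the 30 genes, 15 had r above 0.5 with Hsph1, against 5.14% of all genes. The 8 subunits of the TRiC chaperonin, which folds actin and tubulin, had 6 genes above 0.5 and none with an unadjusted p under 0.05, and their fold changes were below 0 in 7, 8 and 8 of 8 genes, against 50.7%, 47.0% and 46.8% of all genes, with medians of -0.035, -0.083 and -0.063. Cct3 (-0.071, SE 0.10) and Cct6a (-0.19, SE 0.098, and -0.13, SE 0.10) had the smallest p-values there. Of the 6 genes of the HSF family and HSF1 regulators, none had r above 0.5, and 1 had an unadjusted p under 0.05. Hsf4, a relative of HSF1, was at 0.24 (SE 0.18) and 0.42 (SE 0.19, adjusted p = 0.656 from edgeR) in the first 2 comparisons, and Hsbp1, which binds HSF1 trimers, at 0.16 (SE 0.089) in the third.

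The chaperones of the ER answer mainly to the unfolded protein response. All 13 had a log2 fold change above 0 in induced mice, both against genetic controls (median 0.39) and against diet controls (median 0.40). Both comparisons share the 5 induced mice. Over all genes, 50.7% and 47.0% were below 0 in these comparisons. An unadjusted p-value under 0.05 was reached by 6 and 3 of the 13, against 2.86% and 7.29% of all genes, and none passed the adjusted threshold. Pdia6, a disulfide isomerase, stood at 171 CPM (SD 32.1, n = 4) for genetic controls and 276 CPM (SD 89.4, n = 5) for induced mice, a log2 fold change of 0.70 (SE 0.22, adjusted p = 1.00 from edgeR, exact permutation p = 0.0714), higher in 17 of 20 pairs. Sdf2l1, a partner of ER chaperones, was at 15.2 ± 5.91 CPM (SD, n = 5) in induced mice and 6.45 ± 0.922 CPM (n = 4) in diet controls. Its log2 fold change was 1.24 (SE 0.32, adjusted p = 0.473 from edgeR, exact permutation p = 0.0159), and it was higher in 20 of 20 pairs. Groups did not overlap for 2.58% of all genes in that comparison. Pdia6 and Sdf2l1 are named because they had the smallest p of the 13 in the first and second comparison. Between the control groups 8 of 13 were below 0, against 46.8% of all genes, with a median of -0.028, and Dnajc3 had the smallest p (-0.22, SE 0.14). Of these 13 genes, 1 had r above 0.5 with Hsph1. The cytosolic members had medians of -0.010 and -0.33 in the same comparisons. The difference between the lists was not tested.

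Among 7 further mitochondrial chaperones, the smallest p-values belonged to Grpel1 (-0.15, SE 0.084), Dnaja3 (-0.15, SE 0.063) and Clpb (-0.21, SE 0.086) in the 3 comparisons in turn. An unadjusted p under 0.05 was reached by 0, 1 and 1 of them, against 2.86%, 7.29% and 9.19% of all genes. Of the 7 cold-inducible and clock genes, Per1 was at 0.43 (SE 0.54) in the first comparison, and Cirbp at 0.41 (SE 0.23) and 0.45 (SE 0.24) in the others. Of the 8 immediate early genes, which respond within minutes to handling and stress, 7 were tested. Fos was at -0.86 (SE 0.83) in the first comparison, and Ier2 at 0.76 (SE 0.31) and 0.65 (SE 0.32) in the others, none of them called.

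Fewer cells of a type and less RNA per cell cannot be told apart in whole liver. The 5 hepatocyte markers summed to 81457 to 131287 CPM over all mice, and no marker of any of the cell types listed was called by edgeR in any comparison. The 3 red cell markers summed to 90.8 to 125 CPM in diet controls. Their sums were 135 to 989 CPM in genetic controls and 157 to 531 CPM in induced mice, so that by this sum the diet controls did not overlap the others. As single genes, 2.58% of all genes did not overlap against induced mice and 5.50% against genetic controls, and no such share is at hand for sums. All 3 red cell markers had an unadjusted p under 0.05 in both comparisons with the diet controls, against 7.29% and 9.19% of all genes. In these comparisons 8 of 9 members were below 0. Of the 4 markers of sinusoidal endothelium, 3 had an unadjusted p under 0.05 and were lower in induced mice in each comparison with a control group, against 2.86% (genetic controls) and 7.29% (diet controls) of all genes in either direction. Of the 4 Kupffer cell markers, 3 were higher in genetic controls than in diet controls at that level, against 9.19% of all genes. The part of these differences in the levels of the heat shock genes was not tested.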

How the data were processed

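Liver RNA of 13 mice was sequenced from strand-specific, poly(A)-selected libraries. Salmon assigned the reads to GENCODE M19 transcripts (GRCm38.p6), tximport summed them to genes, and the authors deposited the estimated counts, rounded to whole numbers and without scaling. Reads that fit several transcripts are divided by estimated abundance, which makes near copies and pseudogenes uncertain. Totals were 17819486 to 35358711 counts per mouse (median 24454043). The sources used here name no molecular identifiers, so counting error is a lower limit of the technical error. The table has columns for these 13 mice and no others. Replicates are separate animals.

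In R 4.3.3, edgeR 4.0.16 kept 14317 genes by its filter on low counts, scaled them by TMM and ran the quasi-likelihood test (robust dispersion) on 3 group means fitted to all 13 mice. The Benjamini-Hochberg adjustment ran over every tested gene with a threshold of 0.1. SE was the absolute log2 fold change over the root of its F statistic. For single members an exact permutation test, two-sided, compared mean log2 CPM (prior count 2). Relations used 100000 two-sided permutations each. DESeq2 1.42.0, limma-voom (limma 3.58.1), other scalings, filters and covariates, the replicate number as a block, sums of near copies, and each mouse left out were alternatives. Coordinates and transcripts came from GENCODE M21 (GRCm38), in which 53355 identifiers matched, and promoters from RefSeq (GRCm38.p6). Shared sequence was counted as stretches of 31 bases. The scripts were tested on simulated data. Members and lists were chosen with earlier results of these data known. The named genes of a list were those called and otherwise the gene with the smallest p in each comparison, and for Hsph1 and Hspa1b the 5 genes with the highest r.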

Additional observations from a re-analysis of the deposited data

Results flagged for a closer look

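Within the groups, 30 sets of values (10 genes in 3 groups) were searched for a mouse far from the others of its group by Dixon's test, for which chance gives about 1 in 20. Hsp90aa1 in replicate 1 of the diet controls (ASAH+ Etoh) was at 393 CPM, and the other 3 mice of that group were at 198 to 208 CPM. Hspb1 in replicate 2 of the induced mice (ASAH+ Etoh-Dox) was at 3.46 CPM, and the other 4 were at 9.91 to 14.3 CPM. These are 2 of the 30 sets.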

How the results depend on the processing

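Members called numbered 0 in all 3 comparisons under all alternatives other than DESeq2 on all 13 mice, which called 1 member, Hsp90ab1, between induced mice and diet controls (log2 fold change -0.29). That fit gave no adjusted p for 5 members in this comparison and for Hspa1b between the control groups. Leaving out 1 mouse at a time gave 0 to 0 called members. The median log2 fold change of the members was then -0.11 to 0.13 for induced mice against genetic controls, -0.45 to -0.17 for induced mice against diet controls and -0.44 to -0.13 between the control groups. The relations that passed numbered 3 to 10 of 29 with 1 mouse left out, an alternative chosen after seeing the data, and the 3 came without replicate 1 of the diet controls. Another prior count or scaling left 9. The first of these medians, -0.010 with all mice, thus changed sign. Changes of sign, none of them in a called value, also occurred in 24 log2 fold changes of single members. For induced mice against genetic controls, log2 fold changes became -0.034 for Hspb1 by limma-voom, 0.0037 for Hsp90aa1 without a count filter and -0.00018 for Dnajb1 with at least 10 counts in every mouse. With 1 mouse left out, the same comparison ranged from -0.080 to 0.37 for Hspa1b, -0.030 to 0.37 for Hsph1, -0.12 to 0.21 for Hsp90aa1, -0.066 to 0.30 for Hspb1 and -0.12 to 0.13 for Dnajb1. Against the diet controls Hspa1b was at 0.28 for induced mice and 0.21 for genetic controls by limma-voom, and ranged from -0.84 to 0.27 and from -0.97 to 0.14 with 1 mouse left out. The positive values came without replicate 4 of the diet controls. The cause was not tested. Depth limits Hspa1a most, with 1 to 16 counts per mouse.

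The replicate numbers belong to different animals, and same-numbered mice did not deviate together (mean correlation -0.13, 0.057 and -0.062). With the replicate block 0 members were called in each comparison, and the medians were -0.080, -0.32 and -0.24. Under the block the log2 fold changes of Hspa1b (-0.0037), Hspb1 (-0.16) and Dnajb1 (-0.066) for induced mice against genetic controls changed sign.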
